A study of Mus musculus with 100 samples.

Results

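The interferon-stimulated genes are the genes that type I and type II interferons switch on in an infected or alerted cell. Here the loci of 48 genes were followed through chromatin immunoprecipitation sequencing (ChIP-seq) of mouse macrophages. They are such genes together with Ifnb1, Ifnar1 and Ifnar2, which encode an interferon and its receptor chains. The genes were taken from a list of names, and a region belonged to a gene when its deposited annotation named that gene as the nearest one. All 48 genes were found, with 2407 of the 610301 regions that the 15 region tables held for 18524 genes in all. A region within 2 kb of the annotated transcription start was called a promoter region, and any other was called distal, so that a distal region is tied to a gene by distance alone.

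The cells were bone marrow-derived macrophages (BMDMs) of C57BL/6 background, grown from the marrow of adult mice and starved of serum before treatment. Wild type BMDMs received vehicle (Veh) or KLA, the Toll-like receptor 4 (TLR4) agonist Kdo2-lipid A, for 6 h before ChIP of NCoR, HDAC3, p65, Fosl2, PU.1, PGC1b, ERK1 or p300, with 2 libraries per group. The untreated p300 libraries are labelled as 0 h of KLA. Other wild type BMDMs received DMSO with Veh (DMSO Veh), DMSO with KLA (DMSO KLA) or KLA with an inhibitor. The ERK inhibitor LY3214996 (ERKi) was used for PGC1b, beside both DMSO groups, and for NCoR. RGFP966 is a small molecule inhibitor of the deacetylase HDAC3 and was present from the starvation on. H3K27ac is the acetylated lysine 27 of histone H3 that active promoters and enhancers carry. It was profiled in wild type BMDMs with DMSO Veh, DMSO KLA and RGFP966 with KLA. It was also profiled with Veh or KLA in BMDMs of 4 genotypes. These were NCoR flox/flox (WT), NCoR flox/flox, LysMCre (NKO), PGC1b flox/flox and PGC1b flox/flox, LysMCre. In the Cre genotypes the floxed gene is removed in cells that have used the lysozyme M promoter, so cells that escaped recombination were profiled with the others, and the control genotypes carried the floxed alleles without Cre. ERK1 and p300 were profiled as well in wild type bone marrow cells grown with M-CSF (Day0) and after 4 days of RANKL (Day4), the culture that gives osteoclasts. In the labels the 2 libraries of a group are biological replicates, without a statement of whether they came from separate animals, so p-values measure the spread between these libraries.

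Interferon-β, made by a cell whose pattern receptors have been triggered, leaves the cell and binds the receptor chains IFNAR1 and IFNAR2 on the same and on neighbouring cells. The receptor activates a complex with IRF9 that binds the interferon-stimulated response element (ISRE) in the promoters of the responding genes. In macrophages TLR4 reaches this route through the adaptor TRIF and IRF3, beside its route to the nuclear factor p65 (RELA, a subunit of NF-κB) and to AP-1 proteins such as Fosl2. PU.1 is the lineage factor of macrophages, p300 a histone acetyltransferase, and NCoR with HDAC3 is known as a corepressor complex. PGC1b is a coactivator, and ERK1 a kinase of the MAP kinase cascade.

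The sequences of these loci show the response elements directly. The 250 bases before the start site are printed 5′ to 3′ on the strand of the gene for 4 promoters described below, which hold different sets of these elements. A 200-base window of the plus strand is printed for 2 distal regions, 1 that gained tags with KLA in 7 factors and 1 that lost them in 4. They were read from RefSeq and the assembly GRCm38.p6, the same build as the mm10 of the files. Capitals mark every match, on either strand and with overlaps, to the ISRE core (GAAANNGAAA), to the ETS-IRF composite (GGAANNGAAA) and to the NF-κB consensus.
Gbp5 promoter, chr3:142496684-142496933, plus strand: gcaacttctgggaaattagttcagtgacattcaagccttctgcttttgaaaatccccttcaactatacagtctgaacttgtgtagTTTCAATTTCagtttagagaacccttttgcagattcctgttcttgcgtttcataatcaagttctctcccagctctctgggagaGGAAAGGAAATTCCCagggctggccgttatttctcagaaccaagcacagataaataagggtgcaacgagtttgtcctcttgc
Oasl1 promoter, chr5:114922990-114923239, plus strand: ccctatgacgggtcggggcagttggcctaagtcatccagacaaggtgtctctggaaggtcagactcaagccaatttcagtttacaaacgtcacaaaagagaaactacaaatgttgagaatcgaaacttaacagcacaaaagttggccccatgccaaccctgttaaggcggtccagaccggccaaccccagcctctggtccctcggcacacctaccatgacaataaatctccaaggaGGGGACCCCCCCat
Isg15 promoter, chr4:156200819-156201068, minus strand: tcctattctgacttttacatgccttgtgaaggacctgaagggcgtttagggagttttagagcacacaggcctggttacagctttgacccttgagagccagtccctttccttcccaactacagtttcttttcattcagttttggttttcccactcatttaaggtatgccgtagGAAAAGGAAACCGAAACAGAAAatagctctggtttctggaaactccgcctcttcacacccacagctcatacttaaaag
Ifnb1 promoter, chr4:88522795-88523044, minus strand: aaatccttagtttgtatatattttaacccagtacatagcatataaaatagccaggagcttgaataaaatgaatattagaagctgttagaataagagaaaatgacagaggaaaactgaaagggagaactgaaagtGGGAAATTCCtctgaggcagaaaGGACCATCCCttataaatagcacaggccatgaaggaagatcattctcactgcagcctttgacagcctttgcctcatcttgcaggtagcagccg
Trim30a distal region, chr7:104404630-104404829, plus strand: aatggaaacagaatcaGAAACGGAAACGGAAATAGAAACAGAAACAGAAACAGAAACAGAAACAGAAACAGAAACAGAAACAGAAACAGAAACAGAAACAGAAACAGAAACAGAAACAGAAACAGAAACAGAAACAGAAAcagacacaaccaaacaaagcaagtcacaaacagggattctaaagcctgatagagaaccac
Ifnb1 distal region, chr4:88503817-88504016, plus strand: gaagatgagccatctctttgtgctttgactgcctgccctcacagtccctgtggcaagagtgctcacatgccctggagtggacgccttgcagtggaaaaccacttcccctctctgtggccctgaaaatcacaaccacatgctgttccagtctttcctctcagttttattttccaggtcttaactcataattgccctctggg
The Gbp5 promoter carried 1 match to the ISRE core, 1 to the ETS-IRF composite and 2 to the NF-κB consensus. The Isg15 promoter carried 3 overlapping ISRE cores and no NF-κB match, while the Oasl1 promoter carried 5 overlapping NF-κB matches in 1 run of G, A and C near the start and no ISRE core in this window. The Ifnb1 promoter held 3 NF-κB matches, and the distal Ifnb1 window held none of these motifs. The Trim30a window is a tandem repeat with 20 overlapping ISRE cores, and whether tags of other copies of the repeat were counted there was not tested.

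A RefSeq promoter, 250 bases before and 50 after the start, was at hand for 37 of the 48 genes as 42 sequences. The genes without an entry were Dhx58, Zbp1, Oas2, Mx1, Mx2, Rtp4, Usp18, Parp9, Parp14, Iigp1 and Ifi204. The ISRE core was in 22 of the 42 promoters (52.4%) of 21 genes, against 3.44% of the 32851 promoters in the table. The ETS-IRF composite was in 5 (11.9%, against 2.71%) and the interferon-γ activated site (GAS, TTCNNNGAA) in 12 (28.6%, against 8.30%). The NF-κB consensus was in 16 (38.1%, against 26.8%), the AP-1 site (TGANTCA) in 9 (21.4%, against 7.81%) and the extended PU.1 site (GAGGAAGT) in 2 (4.76%, against 3.20%). GAS and AP-1 sites read the same on both strands, and an ISRE core can overlap an ETS-IRF composite. These shares describe the letters only.

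The values are tags, that is, aligned reads counted in a region, and the counts of each library were divided by its total and multiplied to give tags per 10 M. Library totals ran from 4.30 to 21.5 M tags, and the correlation of log2 counts between the 2 libraries of a group ran from 0.484 in ERK1 at Day4 to 0.978 in PU.1 at Veh. The Fosl2 KLA libraries stood apart from each other, with 16.4% and 32.3% of tags in regions. Of 8 macrophage marker genes, 7 or 8 had a promoter region in each table of a factor, Cd68 and Adgre1 among them, while 5 to 7 of them had one for H3K27ac. Of 4 T cell markers 0 or 1 had a promoter region in any table, and of 4 B cell markers only Ms4a1 had one. Fewer cells of a type and less of a factor per cell cannot be told apart in such bulk libraries. A region was called higher or lower when its Benjamini-Hochberg adjusted p in the edgeR fit over all regions of its table was under 0.05 and its change above 2-fold; errors of log2 fold changes are standard errors. For the factors, regions were peaks of either condition, so a region that was made by KLA had to differ. H3K27ac was counted over open chromatin peaks instead. The first counts of a comparison are set beside the share of all regions called in the same way.

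KLA was followed by higher occupancy at these loci in all 8 factors profiled. NCoR was higher with KLA in 51 of 79 (64.6%, against 14.3% of all promoter regions) and in 109 of 167 (65.3%, against 25.6% of all distal regions), and lower in 9 of 246 (3.66%, against 16.7% of all regions). HDAC3 was higher in 60 of 89 (67.4%, against 16.8% of all promoter regions), in 119 of 171 (69.6%, against 30.3% of all distal regions), and lower in 3 of 260 (1.15%, against 11.3% of all regions). In both, the promoters of the effector genes, the GTPases and the ISG15 pathway gave most of the calls. These roles also held most of the promoter regions tested. The median log2 fold change over the regions of the 48 genes was 1.87 for NCoR and 1.94 for HDAC3, against 0.10 and 0.27 over all regions. The counts rested on both libraries of a group: the 169 NCoR calls in either direction became 85 and 89 without KLA replicate 1 or 2, and HDAC3 went from 182 to 108 and 119 without Veh replicate 1 or 2.

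**Figure D1:**
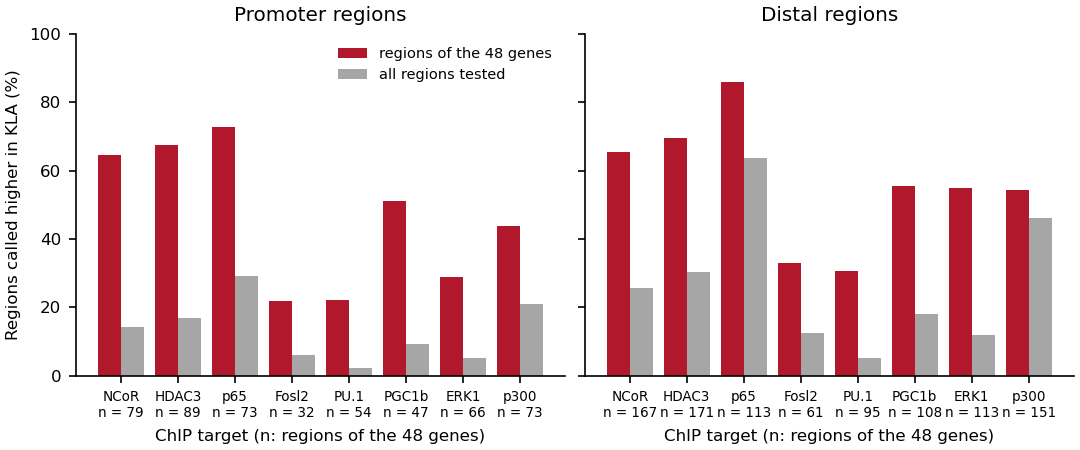
The share of regions called higher in KLA, in percent on the vertical axis, is drawn for each ChIP target in promoter regions (left) and distal regions (right), with the regions of the 48 genes in red and all regions tested in grey. For NCoR 64.6% of the promoter regions of the 48 genes were called, against 14.3% of all, while for p300 at distal regions the bars stand at 54.3% and 46.1%.

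Among the nuclear factors, p65 was higher in 53 of 73 (72.6%, against 29.2% of all promoter regions) and in 97 of 113 (85.8%, against 63.8% of all distal regions), and lower in 1 of 186 (0.538%, against 5.43% of all regions). TMM scaling, which sets the bulk of regions to no change, moved the median p65 change over all regions by -1.22, and 82 of 186 (44.1%, against 27.6% of all regions) of the regions were then higher and 13 of 186 (6.99%, against 21.3% of all regions) lower. PU.1 was higher in 12 of 54 (22.2%, against 2.1% of all promoter regions) and in 29 of 95 (30.5%, against 5.16% of all distal regions), and lower in 2 of 149 (1.34%, against 21.7% of all regions). Over all PU.1 regions more fell than rose. With TMM scaling PU.1 was higher in 67 of 149 (45%, against 9.13% of all regions). Fosl2 was higher in 7 of 32 (21.9%, against 6.14% of all promoter regions) and in 20 of 61 (32.8%, against 12.4% of all distal regions), and lower in 0 of 93 (0%, against 4.19% of all regions). By edgeR 1 region was lower in Fosl2 at an unadjusted p under 0.05, and 1 was lower by DESeq2. The 27 Fosl2 calls went to 0 without either Veh library, to 54 and 42 without KLA replicate 1 or 2, and to 8 with a replicate block.

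Among the coactivators, PGC1b was higher in 24 of 47 (51.1%, against 9.2% of all promoter regions) and in 60 of 108 (55.6%, against 17.9% of all distal regions), and lower in 1 of 155 (0.645%, against 6.35% of all regions). Its 85 calls went to 56 and 54 without Veh replicate 1 or 2. ERK1 was higher in 19 of 66 (28.8%, against 5.16% of all promoter regions) and in 62 of 113 (54.9%, against 11.9% of all distal regions), and lower in 0 of 179 (0%, against 2.53% of all regions), with 1 region lower at an unadjusted p under 0.05 in edgeR and 0 lower in DESeq2. Its 81 calls fell to 24 and 26 without KLA replicate 1 or 2, so that single ERK1 calls rest on both KLA libraries. The acetyltransferase p300 was higher in 32 of 73 (43.8%, against 20.9% of all promoter regions) and in 82 of 151 (54.3%, against 46.1% of all distal regions), and lower in 9 of 224 (4.02%, against 12.9% of all regions). With TMM scaling p300 was higher in 80 of 224 (35.7%, against 32.7% of all regions) and lower in 23 of 224 (10.3%, against 23.9% of all regions) of the regions. The share of p300 regions called higher at distal sites was therefore close to that of all distal regions.

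A second PGC1b experiment, in cells that had received DMSO, gave similar shares. PGC1b was higher with DMSO KLA than with DMSO Veh in 43 of 90 (47.8%, against 9.77% of all promoter regions) and in 138 of 269 (51.3%, against 18% of all distal regions). Of the 158 regions of the effector genes 108 were higher (68.4%), and of the 20 of the interferon and receptor genes 3 (15%), with 16.4% of all regions. The total of 182 calls in either direction went to 113 without DMSO Veh replicate 1.

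By role of the gene the counts were as follows, and differences between roles were not tested. At Ifnb1, Ifnar1 and Ifnar2 NCoR was higher in 4 of 21 regions (19%) and lower in 6 (28.6%), with a median log2 fold change of -0.21, beside 23.4% of all NCoR regions higher and 16.7% lower. At the sensors of foreign nucleic acid, that is the RIG-I-like receptors, ZBP1, PKR and the oligoadenylate synthetases, NCoR was higher in 17 of 33 regions (51.5%). The effectors, which block steps of viral growth, gave 54 of 76 (71.1%) with a median of 2.10, the ISG15 and ubiquitin pathway 43 of 64 (67.2%) with 1.83, and the interferon-inducible GTPases 35 of 40 (87.5%) with 2.33. In p65 the GTPases gave 27 of 31 regions higher (87.1%, against 57% of all regions). In PU.1 they gave 11 of 21 (52.4%, against 4.53% of all regions) with a median of 1.01, the highest of the 6 roles in that factor. In ERK1 the effectors gave 49 of 74 (66.2%, against 10.3% of all regions) with a median of 3.27, and the interferon and receptor genes 1 of 14 (7.14%). Regions of 1 gene share their neighbourhood and are no replicates of each other.

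**Figure D2:**
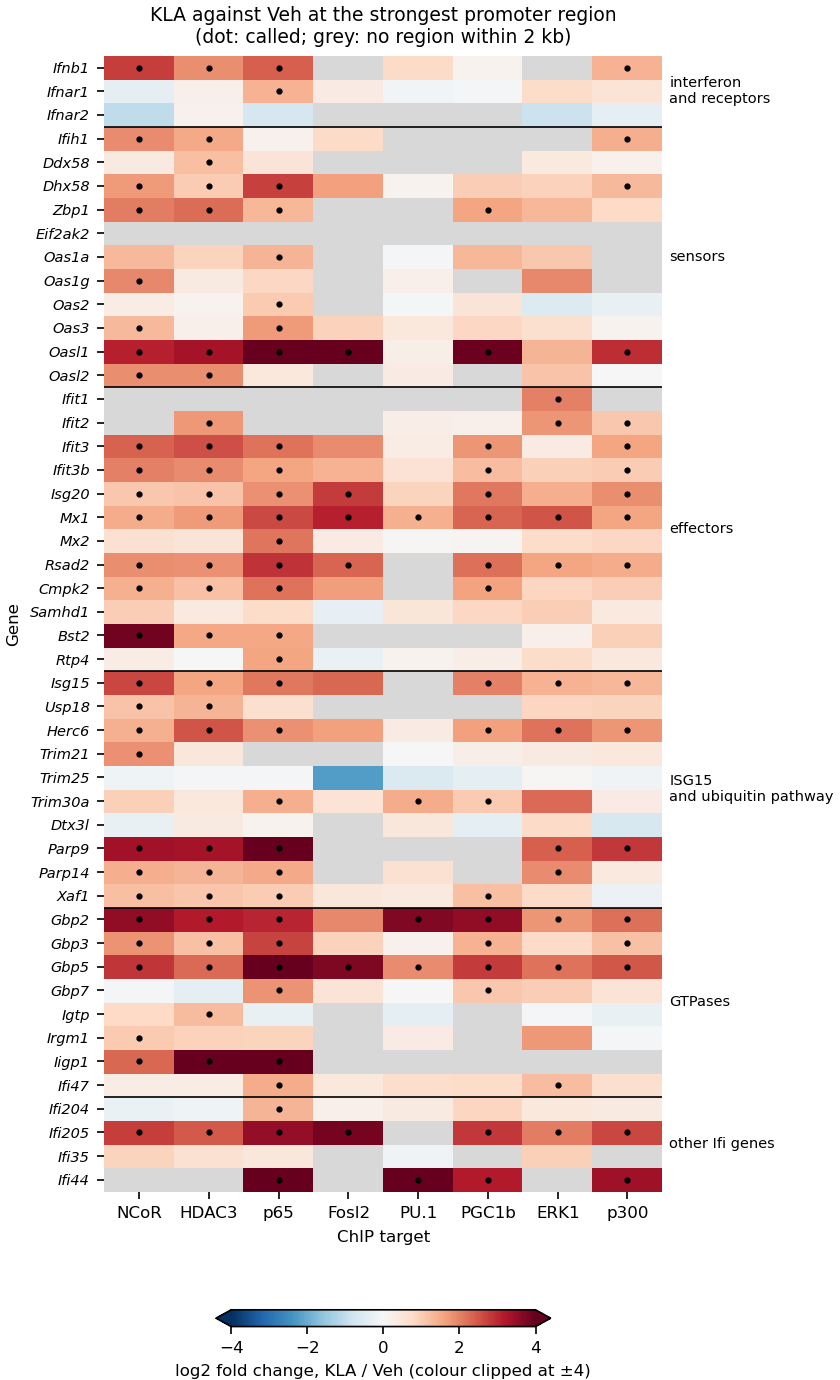
Each cell gives the log2 fold change of KLA over Veh at the strongest promoter region of a gene (rows, grouped by role) in a ChIP target (columns), in red where higher and in blue where lower, with colours clipped at ±4; a dot marks a call and grey a gene without a region within 2 kb. Gbp5 and Mx1 carry a dot in all 8 columns, no cell carries a call for a loss, and 6 genes carry no dot.

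Read gene by gene at the strongest promoter region, 42 of the 48 genes were higher in at least 1 of the 8 factors, 20 in at least 4 and 2 in all 8. The same counts over all genes are not given here. Of all promoter regions 29.2% were higher in p65, 20.9% in p300, 16.8% in HDAC3 and 14.3% in NCoR, so a call in at least 1 factor is not particular to these genes. No gene was lower in any factor at this region. The 6 genes with no call were Ifnar2, a receptor chain, Eif2ak2 (PKR), which had no promoter region in the 8 factors, Samhd1, a nucleotide hydrolase that limits retroviruses, and Trim25, Dtx3l and Ifi35. With TMM scaling Igtp, Trim25 and Ifnar2 passed the test as lower in p65 (-1.55, -1.31 and -1.92) and Dtx3l in p300 (-1.16). Dtx3l and Ifih1, whose sign turned with this scaling, passed as lower in p65 as well. Ifnar2 in NCoR passed as lower without Veh replicate 1 (-1.04) or 2 and Trim25 in Fosl2 without KLA replicate 2 (-7.48). The absence of losses thus holds for all libraries scaled to their totals.

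Gbp5, a guanylate-binding GTPase that acts on intracellular bacteria and on inflammasomes, was 1 of the 2 genes called in all 8 factors. At its promoter (chr3, about 140 bases before the start) NCoR gave 45.4 and 37.7 tags per 10 M in Veh and 309 and 294 in KLA (log2 fold change 2.86 ± 0.22, adjusted p = 3.43e-05). p65 gave 34.1 and 14.9 in Veh and 473 and 512 in KLA (log2 fold change 4.31 ± 0.30, adjusted p = 1.41e-06). PU.1, already present in Veh, gave 68.8 and 72.2 in Veh and 253 and 272 in KLA (log2 fold change 1.90 ± 0.11, adjusted p = 4.06e-34). In each of these 3 factors both KLA libraries lay above both Veh libraries. HDAC3 went from 66.2 and 76.9 to 295 and 392, Fosl2 from 26.8 and 14.7 to 184 and 364, PGC1b from 18.2 and 5.58 to 84.1 and 77.2, ERK1 from 25.2 and 13.9 to 87.3 and 85.8 and p300 from 39.5 and 46 to 218 and 255. The groups did not overlap in any of the 8 factors, though the HDAC3 call was lost without Veh replicate 1 or 2 (log2 fold change 2.15 and 2.37) and the ERK1 call without KLA replicate 1 or 2 (2.15 and 2.18). A second Gbp5 locus, about 2.8 kb before the start and intergenic, was called in all 8 factors as well, with p65 at 18.4 and 6.53 in Veh and 214 and 210 in KLA (log2 fold change 4.06 ± 0.36, adjusted p = 5.72e-06) and PU.1 at 79.6 and 67.8 in Veh and 210 and 229 in KLA (log2 fold change 1.56 ± 0.12, adjusted p = 1.14e-25).

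Mx1, a dynamin-like GTPase, was the other. Its promoter gave 46.6 and 38.8 in Veh and 125 and 115 in KLA (log2 fold change 1.49 ± 0.27, adjusted p = 0.00158) in NCoR. In p65 it gave 21.9 and 16.8 in Veh and 118 and 127 in KLA (log2 fold change 2.65 ± 0.32, adjusted p = 4.23e-05), and in PU.1 33.1 and 41.1 in Veh and 102 and 96.2 in KLA (log2 fold change 1.43 ± 0.18, adjusted p = 1.09e-12). KLA libraries were above Veh libraries throughout. HDAC3 went from 41.5 and 38.7 to 103 and 162, Fosl2 from 15.5 and 1.05 to 44.2 and 93.5, PGC1b from 12.3 and 12.6 to 76.5 and 49.8, ERK1 from 28.3 and 8.09 to 84.8 and 117 and p300 from 23.2 and 23 to 61.9 and 75.7. The HDAC3 call was lost without Veh replicate 1 or 2 (1.75 and 1.66) and the ERK1 call without KLA replicate 2 (2.27).

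Mx1 also gained tags far from its promoter. Near the end of the gene, about 17 kb after the start, HDAC3 had 0 tags in both Veh libraries and 66.8 and 116 tags per 10 M in KLA, at least 83.9-fold higher against a floor of 3 tags over the group. PGC1b had 1 tag in the 2 Veh libraries and 232 in the KLA libraries, a ratio of 336 with a 95% counting interval from 59.6 to 13310. ERK1 gave 9.44 and 1.16 in Veh and 125 and 77.6 in KLA (log2 fold change 4.36 ± 0.68, adjusted p = 0.00637) there, and NCoR 7.17 and 1.18 in Veh and 56.7 and 64.3 in KLA (log2 fold change 3.83 ± 0.59, adjusted p = 6.51e-04). Other effector regions were annotated inside a gene as well, beyond 2 kb of the start. Of these ERK1 was higher in 34 of 42 (81%, against 11.6% of all such regions), HDAC3 in 35 of 42 (83.3%, against 29.5%), NCoR in 28 of 37 (75.7%, against 24.7%), PGC1b in 21 of 24 (87.5%, against 18.1%) and p65 in 14 of 15 (93.3%, against 61.3%). PU.1 was higher in 6 of 12 (50%, against 4.87%) and p300 in 7 of 18 (38.9%, against 43.9%). The tag intervals cover counting error only.

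**Figure D3:**
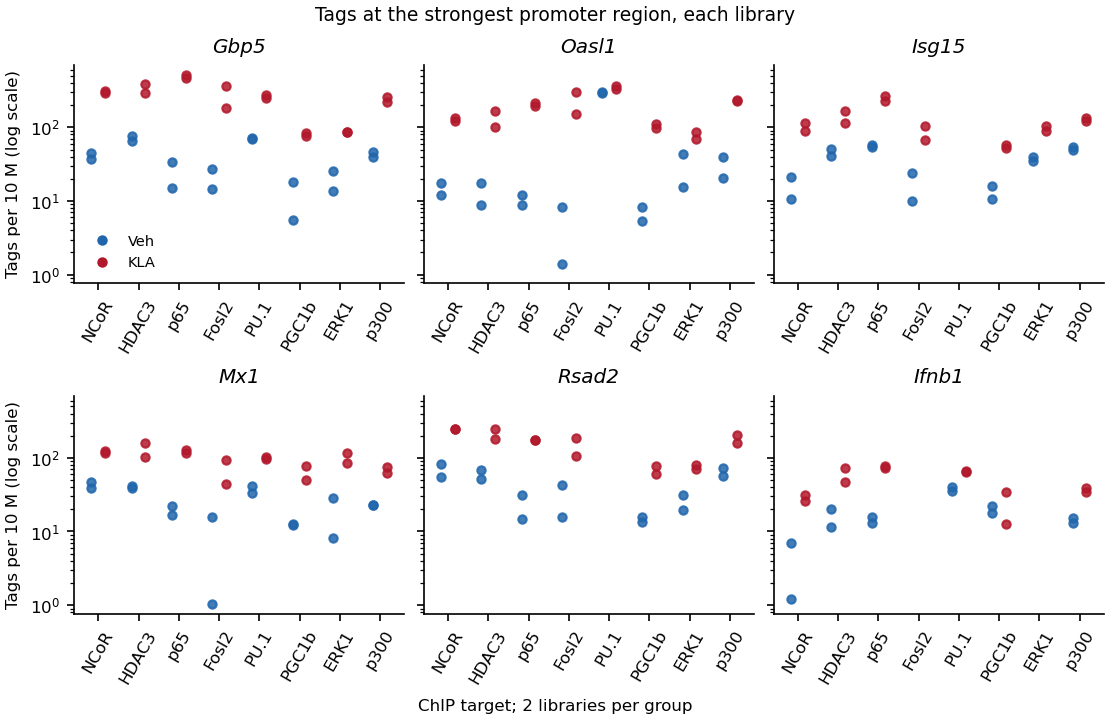
Tags per 10 M on a log axis are shown for each library (points; Veh blue, KLA red, 2 per group) of the 8 ChIP targets at the strongest promoter region of 6 genes. At Gbp5 and Mx1 the red points lie above the blue ones in every target, whereas at Oasl1 the PU.1 points of the region 1.2 kb before the start lie together, between 289 and 359. A target without points has no region within 2 kb.

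Oasl1, a catalytically inactive relative of the oligoadenylate synthetases that limits translation of Irf7 mRNA, showed how the factors parted within 1 promoter. Between 145 and 269 bases before the start NCoR gave 11.9 and 17.6 in Veh and 124 and 134 in KLA (log2 fold change 3.11 ± 0.33, adjusted p = 1.10e-04) and p65 8.76 and 12.1 in Veh and 214 and 193 in KLA (log2 fold change 4.28 ± 0.31, adjusted p = 1.80e-06). PU.1 gave 10.9 and 16.2 in Veh and 98.1 and 88.6 in KLA (log2 fold change 2.80 ± 0.22, adjusted p = 2.56e-23). The PU.1 region with most tags was another, 1158 bases before the start, with 289 and 301 in Veh and 327 and 359 in KLA (log2 fold change 0.22 ± 0.08, adjusted p = 0.0141, not called). PU.1 was thus called at the region that the other factors also gained and not at the region it already held. HDAC3 went from 17.5 and 8.85 to 100.2 and 167, Fosl2 from 1.41 and 8.39 to 151 and 299, PGC1b from 5.29 and 8.37 to 112 and 99, ERK1 from 23.6 and 2.31 to 72.5 and 62.6 and p300 from 20.7 and 39.4 to 231 and 236 at the nearer region, and the Veh and KLA libraries did not overlap in these.

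Among the other sensors, Ifih1 (MDA5, a receptor of long double-stranded RNA) was higher in NCoR with 38.2 and 28.2 in Veh and 112 and 134 in KLA (log2 fold change 1.88 ± 0.29, adjusted p = 7.19e-04) and in p300 with 22.6 and 30.2 in Veh and 80.3 and 64.3 in KLA (log2 fold change 1.46 ± 0.28, adjusted p = 3.45e-04), the latter lost with TMM scaling (0.93). p65 at the same promoter gave 49 and 65.2 in Veh and 61.4 and 67.7 in KLA (log2 fold change 0.18 ± 0.31, adjusted p = 0.621, not called), and with TMM scaling the sign turned to -1.04, called as lower. Ddx58 (RIG-I) had in HDAC3 48.7 and 38.2 in Veh and 47.5 and 163 in KLA (log2 fold change 1.21 ± 0.39, adjusted p = 0.00644). The first KLA library lay within the Veh libraries' range, so the groups overlapped. NCoR at Ddx58 gave 49 and 54.1 in Veh and 57.5 and 74 in KLA (log2 fold change 0.35 ± 0.30, adjusted p = 0.363, not called). The HDAC3 call at Ddx58 was lost with TMM scaling (0.80), without KLA replicate 2 (0.14) and without Veh replicate 1 or 2 (1.43 and 1.07).

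Rsad2 (viperin, which makes a chain-terminating nucleotide) was called in all 7 factors with a promoter region. NCoR gave 81.2 and 54.1 in Veh and 245 and 247 in KLA (log2 fold change 1.86 ± 0.24, adjusted p = 2.50e-04), p65 14.9 and 31.7 in Veh and 173 and 172 in KLA (log2 fold change 2.90 ± 0.33, adjusted p = 3.17e-05) and p300 73.3 and 57.2 in Veh and 202 and 161 in KLA (log2 fold change 1.47 ± 0.20, adjusted p = 8.42e-06). Both KLA libraries lay above both Veh libraries in each. HDAC3 went from 51.6 and 67.5 to 181 and 248, Fosl2 from 15.5 and 43 to 107 and 187, PGC1b from 15.9 and 13.5 to 77.5 and 59.5 and ERK1 from 31.5 and 19.7 to 81.1 and 70.8. The p300 and ERK1 calls were lost with TMM scaling (0.95 and 1.39), the ERK1 call without KLA replicate 1 or 2 (1.48 and 1.68) or Veh replicate 2 (1.27), and the HDAC3 call without Veh replicate 1 or 2 (1.66 and 2.04). Its neighbour Cmpk2, a mitochondrial nucleotide kinase, starts nearby and was called in 4 factors, for NCoR 68.1 and 75.3 in Veh and 176 and 205 in KLA (log2 fold change 1.41 ± 0.22, adjusted p = 7.98e-04).

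Isg15, the ubiquitin-like protein that is conjugated to targets in infected cells, had 3 overlapping ISRE cores and no PU.1 region within 2 kb. NCoR gave 10.8 and 21.2 in Veh and 116 and 89.2 in KLA (log2 fold change 2.67 ± 0.38, adjusted p = 4.64e-04), PGC1b 10.6 and 15.8 in Veh and 56.8 and 52 in KLA (log2 fold change 2.02 ± 0.39, adjusted p = 0.00111) and p65 54.3 and 57.8 in Veh and 226 and 263 in KLA (log2 fold change 2.12 ± 0.23, adjusted p = 1.99e-05). All 3 kept KLA above Veh, and the p65 and p300 calls were lost with TMM scaling (0.90 and 0.80). HDAC3 went from 40.7 and 50.9 to 113 and 167, p300 from 53.3 and 49.3 to 134 and 123 and ERK1 from 34.6 and 39.3 to 104 and 89.8, the ERK1 call being lost without any 1 of its libraries. Fosl2 gave 9.87 and 24.1 in Veh and 67.5 and 103 in KLA (log2 fold change 2.30 ± 0.89, adjusted p = 0.0571, not called). The HDAC3 call was lost without Veh replicate 1 or 2 (1.45 and 1.77) and the PGC1b call without Veh replicate 1 (1.78).

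Usp18, the protease that removes ISG15 and dampens the interferon receptor, gained more tags in an intron than at its start. At the promoter NCoR gave 32.3 and 28.2 in Veh and 69.7 and 65 in KLA (log2 fold change 1.15 ± 0.33, adjusted p = 0.0152), with p65 at 41.1 and 86.7 in Veh and 100.2 and 97.8 in KLA (log2 fold change 0.64 ± 0.34, adjusted p = 0.116, not called) and turned to -0.57 with TMM scaling. About 4.4 kb after the start, in an intron (chr6:121250172-121250377 in NCoR), NCoR had 1 tag in the 2 Veh libraries and 456 in the 2 KLA libraries, a ratio of 287 with a 95% interval from 51.2 to 11360. PU.1 had 3 and 377 tags, a ratio of 144 with an interval from 48.8 to 700. This was a site with almost no tags before KLA. ERK1 had none in Veh and 95.9 and 66.7 tags per 10 M in KLA, at least 41.0-fold higher. p65 gave 3.5 and 1.86 in Veh and 230.4 and 341 in KLA (log2 fold change 6.67 ± 0.42, adjusted p = 8.89e-07), HDAC3 went from 1.46 and 6.64 to 162 and 159.8, Fosl2 from 0 and 9.44 to 156 and 300.4 and p300 from 3.13 and 7.23 to 180.1 and 163. PGC1b had no region there.

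Trim30a, a ubiquitin ligase that restrains TLR signalling, had a strong gain at the repeat printed above, 41399 bases after its start and intergenic. p300 gave 8.78 and 8.54 in Veh and 251 and 262 in KLA (log2 fold change 4.87 ± 0.23, adjusted p = 1.69e-10) and NCoR 3.58 and 9.42 in Veh and 122 and 157 in KLA (log2 fold change 4.40 ± 0.42, adjusted p = 6.68e-05). HDAC3 went from 2.91 and 9.95 to 140.1 and 218, p65 from 11.4 and 8.39 to 149 and 169, Fosl2 from 4.23 and 10.5 to 105 and 181, PGC1b from 4.11 and 5.58 to 127 and 70.9 and ERK1 from 6.29 and 13.9 to 87.3 and 46.3. All 7 factors with a region there were called higher, with no overlap between Veh and KLA. At this repeat PU.1 had no region.

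Gbp2, a second guanylate-binding protein, was called in 8 factors about 1.8 kb before its start, in sequence annotated as a 3′ UTR. NCoR gave 34.6 and 47.1 in Veh and 505 and 454 in KLA (log2 fold change 3.55 ± 0.22, adjusted p = 2.33e-05). PU.1 gave 8.79 and 13.1 in Veh and 151 and 133 in KLA (log2 fold change 3.71 ± 0.21, adjusted p = 7.03e-36), and p65 gave 22.8 and 4.66 in Veh and 208 and 241 in KLA (log2 fold change 4.00 ± 0.42, adjusted p = 1.88e-05). These KLA libraries were far above the Veh libraries. Igtp and Irgm1, immunity-related GTPases of the vacuole, were read at their promoters too: NCoR at Irgm1 gave 65.7 and 41.2 in Veh and 98.8 and 122 in KLA (log2 fold change 1.05 ± 0.30, adjusted p = 0.0152), a call lost without Veh replicate 2 (0.75) and without KLA replicate 1 or 2 (1.19 and 0.89). Igtp gave 27.5 and 28.2 in Veh and 47 and 49.1 in KLA (log2 fold change 0.78 ± 0.36, adjusted p = 0.0977, not called). The Gbp, Ifit, Oas1 and Mx genes are families of close copies, and tags of near-identical sequence may be placed in the wrong copy.

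Ifi205, a nuclear DNA-binding protein of the p200 family, was called in all 7 factors with a promoter region, with p65 at 17.5 and 28.9 in Veh and 262 and 272 in KLA (log2 fold change 3.53 ± 0.28, adjusted p = 2.75e-06) and NCoR at 26.3 and 37.7 in Veh and 219.5 and 221 in KLA (log2 fold change 2.78 ± 0.26, adjusted p = 6.05e-05). PU.1 had no region there. The ERK1 call was lost with TMM scaling (1.85), without KLA replicate 1 or 2 (2.16 and 1.95) and without Veh replicate 1 (1.62).

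The interferon gene itself and its receptor genes held 6 of the 9 NCoR losses. At the Ifnb1 promoter NCoR gave 1.2 and 7.06 in Veh and 31.6 and 26.3 in KLA (log2 fold change 2.77 ± 0.67, adjusted p = 0.00687), and the call was lost without KLA replicate 1 or 2 (2.63 and 2.89). p65 gave 13.1 and 15.8 in Veh and 72.8 and 78.7 in KLA (log2 fold change 2.38 ± 0.37, adjusted p = 2.64e-04). PU.1 gave 35.7 and 40.5 in Veh and 64.1 and 65.6 in KLA (log2 fold change 0.77 ± 0.19, adjusted p = 2.16e-04, not called), and p300 went from 15 and 13.1 to 39.4 and 34.6, a p300 call that was lost with TMM scaling (0.87) and without KLA replicate 1 (1.29). HDAC3 went from 11.6 and 19.9 to 47.5 and 72, a call lost without Veh replicate 1 (1.56). The promoter therefore gained where the distal Ifnb1 region printed above lost.

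That region, 18869 to 18892 bases after the Ifnb1 start and intergenic, gave 165 and 186 in Veh and 41.9 and 56.1 in KLA (log2 fold change -1.83 ± 0.14, adjusted p = 5.85e-25) in PU.1. NCoR gave 68.1 and 118 in Veh and 32.4 and 25.6 in KLA (log2 fold change -1.68 ± 0.36, adjusted p = 0.00349) and HDAC3 105 and 109.5 in Veh and 36.9 and 43.9 in KLA (log2 fold change -1.43 ± 0.39, adjusted p = 0.00126). p300 went from 66.4 and 38.8 to 24 and 17.8. In each of these 4 factors both KLA libraries were below both Veh libraries. Upstream of Ifnar2, a region at -18027 bases from the start gave 290.4 and 340.2 in Veh and 126 and 121 in KLA (log2 fold change -1.35 ± 0.19, adjusted p = 4.04e-04) in NCoR and 359 and 327 in Veh and 132 and 214 in KLA (log2 fold change -1.01 ± 0.38, adjusted p = 0.0238) in HDAC3. Another Ifnar2 region about 9.9 kb before the start went the other way, with p65 at 5.25 and 9.32 in Veh and 238 and 229 in KLA (log2 fold change 4.99 ± 0.33, adjusted p = 1.08e-06) and p300 at 0.627 and 13.8 in Veh and 275 and 294 in KLA (log2 fold change 5.32 ± 0.39, adjusted p = 1.06e-08), and was higher in 7 factors. Ifnar1 at its promoter gave 184 and 246 in Veh and 157 and 177 in KLA (log2 fold change -0.36 ± 0.21, adjusted p = 0.175, not called) in NCoR and was called in p65 alone, with 132 and 120.3 in Veh and 297 and 359 in KLA (log2 fold change 1.38 ± 0.20, adjusted p = 1.67e-04), a call lost with TMM scaling (0.14).

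Trim25, the ligase that activates RIG-I, had a distal region where the factors moved apart. About 2.8 kb before its start NCoR gave 178 and 181 in Veh and 42.1 and 33.9 in KLA (log2 fold change -2.24 ± 0.25, adjusted p = 1.30e-04) and HDAC3 168 and 163 in Veh and 25.8 and 40.4 in KLA (log2 fold change -2.39 ± 0.40, adjusted p = 3.14e-08). p65 gave 17.5 and 20.5 in Veh and 49.4 and 41 in KLA (log2 fold change 1.25 ± 0.41, adjusted p = 0.0185) and p300 18.2 and 17.1 in Veh and 51.7 and 46.5 in KLA (log2 fold change 1.47 ± 0.33, adjusted p = 0.00114) at the same place. NCoR and HDAC3 were lower in both KLA libraries, and p65 and p300 were higher in both. With TMM scaling neither p65 nor p300 was called higher there.

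Regions of the 8 factors that shared at least 1 base formed 437 loci, 112 at promoters and 325 distal. Of these, 5 were higher with KLA in all 8 factors, at Gbp2, Gbp5 (2 loci), Mx1 and Oasl1, and 4 of the 5 were so with TMM scaling as well, Oasl1 being higher in 7. At least 7 factors were higher in 17 loci and at least 6 in 31, no factor was higher in 115, and 17 loci were lower in at least 1 factor, all 17 of them distal. The same counts over the loci of all genes are not given here, and 57% of all p65 regions and 42.1% of all p300 regions were higher. Of the 437 loci 163 had a region in 1 factor only and 39 in all 8. A locus with regions in few factors could not be higher in many. A 200-base window at the centre held an ISRE core in 13 of the 31 loci higher in 6 or more factors (41.9%), in 51 of 291 higher in 1 to 5 (17.5%) and in 5 of 115 higher in none (4.35%). The NF-κB consensus was in 5 of 31 (16.1%), 43 of 291 (14.8%) and 11 of 115 (9.57%). The extended PU.1 site was in 0 of 31, 19 of 291 (6.53%) and 7 of 115 (6.09%). The windows were centred on the loci, and neighbouring loci of a gene family share sequence.

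ERK inhibition was followed for 2 factors. In PGC1b the ERKi KLA libraries were higher than the DMSO KLA libraries in 8 of 359 (2.23%, against 0.108% of all regions) and lower in 0, with 10 lower at an unadjusted p under 0.05 in edgeR and 0 lower in DESeq2. All 8 belong to effectors, namely Mx1, Mx2 (4 regions), Cmpk2, Ifit3 and Rsad2, and lie in gene bodies or flanks but for 1 Mx2 promoter region. DESeq2 called 36 higher, the replicate block 3, and without 1 library 0 to 2 were called: 2 without DMSO KLA replicate 2 and 0 without DMSO KLA replicate 1 or either ERKi library.

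At 16772 bases after the Mx1 start, PGC1b gave 227 and 214 in DMSO KLA and 638 and 513 in ERKi KLA (log2 fold change 1.38 ± 0.26, adjusted p = 0.0223). In the Cmpk2 body, 6874 bases after the start, it gave 5.92 and 8.93 in DMSO KLA and 84.5 and 76.3 in ERKi KLA (log2 fold change 3.38 ± 0.74, adjusted p = 0.0449). At the Mx2 promoter it gave 77 and 89.3 in DMSO KLA and 327 and 218 in ERKi KLA (log2 fold change 1.71 ± 0.33, adjusted p = 0.0235). Both ERKi libraries were above both DMSO libraries at these 3. At the promoters of the genes above the groups were nearer to each other: Oasl1 gave 122 and 122 in DMSO KLA and 124 and 105 in ERKi KLA (log2 fold change -0.10 ± 0.38, adjusted p = 0.932, not called, and 0.11 with TMM scaling) and Isg15 101 and 89.3 in DMSO KLA and 125 and 89.2 in ERKi KLA (log2 fold change 0.17 ± 0.42, adjusted p = 0.886, not called). Gbp5 gave 109 and 182 in DMSO KLA and 105 and 73.7 in ERKi KLA (log2 fold change -0.71 ± 0.38, adjusted p = 0.394, not called), and in these 3 neither direction passed the test. The median log2 fold change over the 359 regions of the 48 genes was 0.58, against -0.20 over all regions. The PGC1b comparison of DMSO KLA with DMSO Veh and this one share the DMSO KLA libraries.

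In NCoR the ERKi KLA libraries were lower than the KLA libraries in 83 of 261 (31.8%, against 48.6% of all regions). The ERKi libraries carried another run code in their descriptions, so inhibitor and run cannot be told apart, and they had 15.0% and 15.8% of tags in regions against 33.3% and 34.2%. The titles of the KLA libraries name no DMSO, unlike those of the PGC1b control, so inhibitor and solvent cannot be told apart here either. With TMM scaling, which moved the median of all regions by 1.16, 1 of 261 (0.383%, against 3.38% of all regions) were lower and 8 of 261 (3.07%, against 3.45% of all regions) higher. The 84 calls went to 35 and 36 without KLA replicate 1 or 2.

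Gbp3, a guanylate-binding protein, gave 255 and 252 in KLA and 82 and 73.3 in ERKi KLA (log2 fold change -1.71 ± 0.21, adjusted p = 1.10e-04), and Ifit3, which holds IFIT1 on foreign RNA, gave 90.7 and 104 in KLA and 26.2 and 26.7 in ERKi KLA (log2 fold change -1.88 ± 0.38, adjusted p = 0.00143). Both genes lost the call with TMM scaling (-0.54 and -0.72). At Gbp5 NCoR gave 318 and 305 in KLA and 176 and 180.1 in ERKi KLA (log2 fold change -0.81 ± 0.19, adjusted p = 0.0032, not called) and at Isg15 126 and 92.7 in KLA and 93.8 and 73.3 in ERKi KLA (log2 fold change -0.38 ± 0.31, adjusted p = 0.29, not called). At Oasl1 it gave 124 and 134 in KLA and 106 and 100 in ERKi KLA (log2 fold change -0.32 ± 0.25, adjusted p = 0.283, not called). With TMM scaling these 3 turned to 0.36 at Gbp5, 0.78 at Isg15 and 0.85 at Oasl1, none of them called. The sign turned at 36 of the 46 strongest promoter regions. The KLA libraries were those of the comparison with Veh.

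In the osteoclast cultures the loci of these genes were sparse. The labels give wild type as the genotype of all 4 ERK1 libraries. The names of both Day0 libraries and of Day4 replicate 1 carry the word NCoRWT. Day4 replicate 2 is named as the third replicate, without that word and with another run code. ERK1 had 34 of their regions in 20 genes, and Day4 was higher than Day0 in 1 of 34 (2.94%, against 2.33% of all regions), a Dhx58 (LGP2) intron 2737 bases after the start with 8.61 and 3.15 in Day0 and 45.1 and 40.6 in Day4 (log2 fold change 2.80 ± 0.71, adjusted p = 0.0444). None was lower, also at an unadjusted p under 0.05 and with DESeq2. The number called was 3 and 2 without Day0 replicate 1 or 2 and 0 without either Day4 library, with TMM scaling or with DESeq2. The median SE of the log2 fold change over the 34 regions was 0.66, so that changes near 2-fold may not be detectable there. p300 had 23 regions in 15 genes and was higher in 14 of 23 (60.9%, against 62.2% of all regions), or with TMM scaling in 2 of 23 (8.7%, against 8.8% of all regions), both near the share of all regions. The 14 became 3 and 2 without Day4 replicate 1 or 2. Of the 6 osteoclast markers 4 had a promoter region in both tables, with Dcstamp and Nfatc1 lacking one. Among the tags of all promoter regions Ctsk, Ocstamp, Acp5 and Oscar stood at percentiles 97.9, 96.9, 91.8 and 48.2 in p300 and 79.2, 75.1, 22.1 and 56.7 in ERK1. The macrophage markers with a promoter region stood between percentiles 53.5 and 99.9 in p300 and between 14.5 and 99.9 in ERK1. An Rtp4 region 44787 bases after the start gave 0 and 6.39 in Day0 and 75.3 and 85.1 in Day4 (log2 fold change 5.23 ± 0.83, adjusted p = 4.96e-04), and the Ifnar2 region named above, at -18027 bases, gave 56.3 and 59.6 in Day0 and 130.1 and 109 in Day4 (log2 fold change 1.05 ± 0.34, adjusted p = 0.017). With TMM scaling, which moved the median of all p300 regions by -1.61, the Rtp4 region was still called (3.65) and the Ifnar2 region turned to -0.57, not called.

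H3K27ac rose at the promoters of these genes with KLA in every set of cells. In the DMSO cells it was higher in 37 of 40 (92.5%, against 5.32% of all promoter regions) and in 9 of 35 (25.7%, against 7.65% of all distal regions). In PGC1b flox/flox cells it was higher in 35 of 40 (87.5%, against 3.23% of all promoter regions) and in 9 of 34 (26.5%, against 6.52% of all distal regions). In NCoR flox/flox cells it was higher in 22 of 42 (52.4%, against 5.26% of all promoter regions) and in 3 of 17 (17.6%, against 7.9% of all distal regions). Losses were distal: in the DMSO cells 3 of 35 regions (8.57%, against 36.7% of all distal regions) were lower and in PGC1b flox/flox cells 3 of 34 (8.82%, against 32% of all distal regions). In NCoR flox/flox cells 0 of 59 (0%, against 3.72% of all regions) were lower by edgeR, with 3 lower at an unadjusted p under 0.05, 0 by DESeq2 and 2 with TMM scaling. The NCoR table counted tags in the peaks as they stood, and the other 2 in windows of 1000 bases, so levels are not set side by side between them. Of 68 regions of these genes 59 passed the filter of 16 tags in the NCoR table, of 85 regions 75 in the DMSO and 74 in the PGC1b table. The genes without a promoter region in the DMSO and PGC1b tables include Isg15, Oasl1 and Ifnb1.

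In the DMSO cells the Gbp5 promoter gave 29.1 and 33.1 in DMSO Veh and 569 and 537 in DMSO KLA (log2 fold change 4.15 ± 0.25, adjusted p = 1.18e-59). Ifi205 gave 9.97 and 14.8 in DMSO Veh and 465 and 354 in DMSO KLA (log2 fold change 5.04 ± 0.29, adjusted p = 4.03e-65) and Usp18 61.5 and 68.9 in DMSO Veh and 626 and 506 in DMSO KLA (log2 fold change 3.12 ± 0.22, adjusted p = 2.04e-41). Both KLA libraries were many times above both Veh libraries at these 3. Mx1 gave 48.2 and 56.7 in DMSO Veh and 449 and 365 in DMSO KLA (log2 fold change 2.96 ± 0.23, adjusted p = 5.82e-35), and Isg20, an exonuclease, gave 24.1 and 15.7 in DMSO Veh and 273 and 207 in DMSO KLA (log2 fold change 3.59 ± 0.28, adjusted p = 2.36e-36). Ifnar1, the receptor chain, was high in both states, with 296 and 351 in DMSO Veh and 375 and 316 in DMSO KLA (log2 fold change 0.10 ± 0.20, adjusted p = 0.702, not called). All 9 promoter regions of the effectors and all 9 of the GTPases were higher, and 0 of 2 at the interferon receptor genes. The losses in the DMSO cells were at Ifnar2, Ifi204 and Eif2ak2. The Ifnar2 region at -18082 bases from the start, which spans the one where NCoR and HDAC3 fell, gave 635 and 663 in DMSO Veh and 297 and 221 in DMSO KLA (log2 fold change -1.32 ± 0.19, adjusted p = 8.63e-11). All 3 losses in PGC1b flox/flox cells were at Ifnar2, at -18082, -17390 and -5539 bases from the start, the last with 315 and 350.5 in Veh and 93.1 and 96.8 in KLA (log2 fold change -1.81 ± 0.12, adjusted p = 3.38e-43). KLA libraries were below Veh libraries at each. With TMM scaling the Ifnar2 and Eif2ak2 calls in the DMSO cells (-0.89 and -0.71) and the one at -17390 bases in the PGC1b cells (-0.66) were lost. At Gbp5, Mx1 and Ifi205 the rise in H3K27ac stood at promoters where the factors rose as well.

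**Figure D4:**
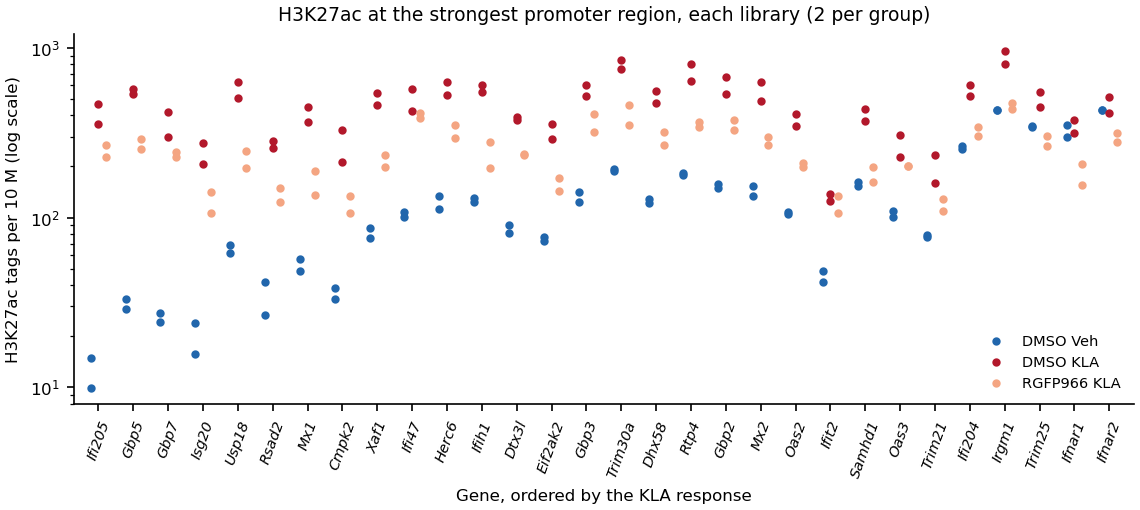
H3K27ac tags per 10 M on a log axis are shown for each of 2 libraries per group (DMSO Veh blue, DMSO KLA red, RGFP966 KLA orange) at the strongest promoter region of 30 genes, ordered by the KLA response. At Gbp5 the points run from 29.1 and 33.1 to 569 and 537 with KLA and to 289.6 and 254 with KLA and RGFP966, so the orange points lie between the others.

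With the HDAC3 inhibitor RGFP966, H3K27ac was lower at some of these promoters, at a share near that of all promoters. It was lower than with DMSO KLA in 9 of 40 (22.5%, against 23.2% of all promoter regions), namely at Cmpk2, Eif2ak2, Gbp5, Ifih1, Mx1, Rtp4, Samhd1, Usp18 and Xaf1. At distal regions it was higher in 8 of 35 (22.9%, against 40.1% of all distal regions). With TMM scaling the promoter count rose to 28 of 40 (70%, against 44.2% of all promoter regions), and over all regions 30 of 75 (40%, against 18.9% of all regions) were lower and 5 of 75 (6.67%, against 16.1% of all regions) higher. The promoter share thus lies beside that of all promoters with one scaling and above it with the other.

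Usp18 gave 626 and 506 in DMSO KLA and 248 and 196 in RGFP966 KLA (log2 fold change -1.35 ± 0.20, adjusted p = 1.32e-10), Mx1 449 and 365 in DMSO KLA and 188 and 136 in RGFP966 KLA (log2 fold change -1.33 ± 0.20, adjusted p = 9.06e-10) and Gbp5 569 and 537 in DMSO KLA and 289.6 and 254 in RGFP966 KLA (log2 fold change -1.02 ± 0.19, adjusted p = 8.20e-07). With RGFP966 these promoters were below DMSO KLA and above DMSO Veh in both libraries, and the Gbp5 call was lost without DMSO KLA replicate 1 (-0.98) or RGFP966 replicate 2 (-0.93). Ifi205 gave 465 and 354 in DMSO KLA and 269 and 227 in RGFP966 KLA (log2 fold change -0.73 ± 0.20, adjusted p = 6.12e-04, not called), past the p threshold but under 2-fold, and called with TMM scaling (-1.07). Ifit2, a partner of the RNA-binding IFIT complex, gave 125 and 138 in DMSO KLA and 134 and 106 in RGFP966 KLA (log2 fold change -0.13 ± 0.22, adjusted p = 0.621, not called), its libraries overlapping. Of the 35 distal regions 27 were not called. Among the 8 called higher were the Ifnb1 region 6967 bases after the start at 25.2 and 28.6 in DMSO KLA and 120.5 and 132 in RGFP966 KLA (log2 fold change 2.23 ± 0.27, adjusted p = 1.12e-14) and the Usp18 region at -15753 bases from the start at 10.4 and 6.73 in DMSO KLA and 61.2 and 46.1 in RGFP966 KLA (log2 fold change 2.61 ± 0.38, adjusted p = 1.44e-10). Both RGFP966 libraries were above both DMSO KLA libraries there.

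In NKO cells the acetylation response was called at promoters as well. H3K27ac was higher with KLA than with Veh in NKO cells in 18 of 42 (42.9%, against 2.31% of all promoter regions) and in 1 of 17 (5.88%, against 3.25% of all distal regions). In 0 of 59 (0%, against 7.96% of all regions) it was lower by edgeR, with 4 lower at an unadjusted p under 0.05, and 0 by DESeq2 or with TMM scaling. The Ncor1 promoter itself, at 44.8 to 70.2 tags per 10 M in the 8 libraries, lies outside what H3K27ac can check of the deletion. Zbp1, a sensor of Z-form nucleic acid that starts cell death, gave 33.4 and 36.2 in WT Veh and 158 and 192 in WT KLA (log2 fold change 2.32 ± 0.20, adjusted p = 4.51e-12) and 42.8 and 40 in NKO Veh and 126 and 156 in NKO KLA (log2 fold change 1.76 ± 0.21, adjusted p = 1.93e-08). Mx2 gave 40.4 and 37.2 in WT Veh and 113 and 121 in WT KLA (log2 fold change 1.60 ± 0.20, adjusted p = 6.71e-08) and 52.4 and 56.9 in NKO Veh and 156 and 176 in NKO KLA (log2 fold change 1.60 ± 0.20, adjusted p = 4.83e-08). Both genes rose in both genotypes. A second Zbp1 promoter region, 1073 bases after the start, rose in both as well (3.53 in WT and 3.49 in NKO). With KLA it gave 40.2 and 66.9 in WT and 22.3 and 16 in NKO (log2 fold change -1.47 ± 0.41, adjusted p = 0.059, not called). At a second Mx2 promoter region, -976 bases from the start, the same comparison gave 0.23 ± 0.28 (adjusted p = 0.786, not called).

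At Dtx3l, the ubiquitin ligase that pairs with PARP9, the region 91 bases after the start gave in WT 47.9 and 45.8 in WT Veh and 119.5 and 139 in WT KLA (log2 fold change 1.46 ± 0.20, adjusted p = 5.12e-07) and in NKO 81.8 and 68.5 in NKO Veh and 96.1 and 105 in NKO KLA (log2 fold change 0.42 ± 0.20, adjusted p = 0.159, not called). A second Dtx3l promoter region, at -765 bases from the start, was called higher in both genotypes. In WT it gave 12 and 19.9 in Veh and 47.8 and 47.6 in KLA (log2 fold change 1.56 ± 0.34, adjusted p = 8.84e-04). In NKO it gave 28 and 15.7 in Veh and 53.1 and 73.6 in KLA (log2 fold change 1.55 ± 0.33, adjusted p = 7.69e-04). The difference between these responses was -0.0084 ± 0.43 (adjusted p = 0.997). At Cmpk2 WT gave 17 and 17.3 in WT Veh and 52.8 and 35.9 in WT KLA (log2 fold change 1.37 ± 0.33, adjusted p = 0.00231) and NKO 41.3 and 34.2 in NKO Veh and 57.3 and 47.9 in NKO KLA (log2 fold change 0.49 ± 0.30, adjusted p = 0.304, not called). At the Dtx3l region after the start and at Cmpk2 the NKO Veh libraries lay above the WT Veh libraries. The difference between the responses was -1.04 ± 0.29 at that Dtx3l region (adjusted p = 0.0604) and -0.88 ± 0.45 at Cmpk2 (adjusted p = 0.366), neither of them called. That Dtx3l region passed without WT KLA replicate 1 (-1.14) and without NKO Veh replicate 2 (-1.17), and the Cmpk2 rise in WT was lost without WT KLA replicate 1 (1.06).

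Direct comparisons of the genotypes gave few calls. With Veh, NKO was higher than WT in 2 of 59 (3.39%, against 0.973% of all regions), and 0 were lower, also at an unadjusted p under 0.05. The 2 were an Oas3 intron 1982 bases after the start, with 44.1 and 53 in WT and 149 and 80.1 in NKO (log2 fold change 1.22 ± 0.24, adjusted p = 0.00295), and a Usp18 intron, with 2.52 and 4.58 in WT and 21.4 and 12.2 in NKO (log2 fold change 2.17 ± 0.55, adjusted p = 0.0271). The NKO libraries lay above the WT libraries in both, and neither was called with TMM scaling or by DESeq2. Neither was called without WT Veh replicate 1, WT Veh replicate 2 or NKO Veh replicate 1, the last giving 1 other call. With KLA, NKO differed from WT in 0 of 59 (0%, against 0.789% of all regions) by edgeR, with 8 higher and 3 lower at an unadjusted p under 0.05 and 0 by DESeq2, and 1 was called without WT KLA replicate 1. The difference between the KLA responses was called in 0 of 59 (0%, against 0.697% of all regions), with 9 lower and 0 higher at an unadjusted p under 0.05 and 0 by DESeq2, and in 2 without WT KLA replicate 1 and 3 without NKO Veh replicate 2. The median SE of the difference between the responses was 0.54 (log2) over the 59 regions, and these counts do not show that the genotypes respond alike.

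**Figure D5:**
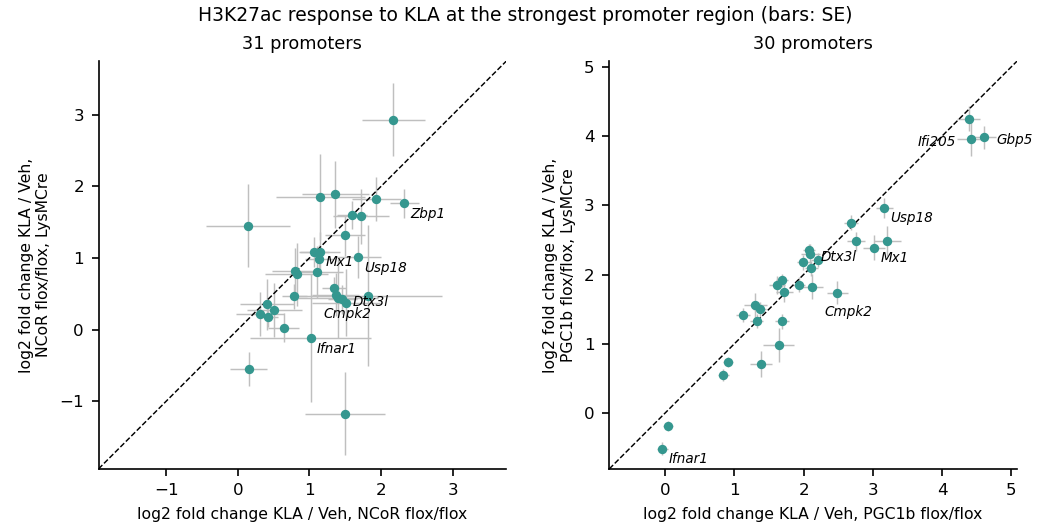
The log2 fold change of H3K27ac with KLA at the strongest promoter region is plotted for the Cre genotype (vertical axis) against its floxed control (horizontal axis), with bars for the SE and a dashed line where both are equal, for 31 genes in the NCoR cells (left) and 30 in the PGC1b cells (right). On the left Dtx3l and Cmpk2 lie below the line, at 1.46 and 1.37 in the control and 0.42 and 0.49 with Cre, and on the right Gbp5 lies at 4.61 and 3.98.

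In PGC1b flox/flox, LysMCre cells H3K27ac was higher with KLA in 34 of 40 (85%, against 3.22% of all promoter regions) and in 8 of 34 (23.5%, against 4.81% of all distal regions). It was lower in 5 of 34 (14.7%, against 41.2% of all distal regions), 4 of them at Ifnar2 and 1 at Ifi204, and in 2 with TMM scaling. With Veh, the Cre cells differed from the floxed control in 0 of 74 (0%, against 0.397% of all regions) by edgeR. At an unadjusted p under 0.05, 35 were lower and 0 higher, DESeq2 called 0, and 1 or 2 were called without each library in turn (1 without flox/flox Veh replicate 1, 2 without each of the other 3). With KLA the Cre cells were lower in 5 of 74 (6.76%, against 6.81% of all regions), a share like that of all regions, and higher in 0, with 1 higher at an unadjusted p under 0.05. With TMM scaling 1 of 74 (1.35%, against 1.9% of all regions) was higher and 0 were lower, and the same numbers came from DESeq2. The 5 became 3 without flox/flox KLA replicate 1.

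The 5 were promoter regions of Mx1, Oas3 and Ifi205 and distal regions of Ifi204 and Usp18. The Oas3 region lies in an intron, 1818 bases after the start. With KLA, Mx1 gave 337 and 330 in flox/flox and 160.4 and 160.2 in the Cre cells (log2 fold change -1.06 ± 0.13, adjusted p = 3.51e-14). Oas3, which makes the messenger that activates RNase L, gave 224 and 205 in flox/flox and 105 and 83.4 in the Cre cells (log2 fold change -1.19 ± 0.16, adjusted p = 8.10e-13), and Ifi205 gave 264 and 311 in flox/flox and 139 and 142 in the Cre cells (log2 fold change -1.04 ± 0.15, adjusted p = 2.46e-11). Both Cre libraries were below both control libraries at the 3, and all 3 lost the call with TMM scaling (-0.66, -0.80 and -0.64). The Ifi205 call was lost as well without flox/flox KLA replicate 2 (-0.91). Gbp5 gave 398 and 392 in flox/flox and 311 and 320.4 in the Cre cells (log2 fold change -0.32 ± 0.11, adjusted p = 0.00927, not called, and 0.072 with TMM scaling), and Ifnar1 432 and 368 in flox/flox and 249.9 and 253 in the Cre cells (log2 fold change -0.67 ± 0.09, adjusted p = 2.67e-12, not called). In Veh, Mx1 had 47.1 and 34 tags per 10 M in flox/flox and 24.3 and 37.1 in the Cre cells, which overlap.

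The response to KLA was higher in the Cre cells than in flox/flox cells at 2 of 74 (2.7%, against 0.77% of all regions), both distal. It was lower at 0 of 74 (0%, against 4.6% of all regions), with 18 lower at an unadjusted p under 0.05 and 0 lower by DESeq2. The 2 called were the Ifnb1 region 6967 bases after the start and an Irgm1 region 14502 bases after the start. At the Ifnb1 region the Cre cells had 29.3 and 23.9 tags per 10 M in Veh and 73.7 and 49.5 in KLA, and flox/flox 59.5 and 41.6 in Veh and 31.8 and 31.6 in KLA. The Cre libraries rose and the control libraries fell. Of the 2 calls, 1 was left without flox/flox Veh replicate 1, flox/flox KLA replicate 2, Cre Veh replicate 2 or Cre KLA replicate 2.

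The genes that carry the signal from TLR4 and from the interferon receptor were read from a separate list of 15, namely Irf1, Irf3, Irf5, Irf7, Irf8, Irf9, Stat2, Jak1, Tyk2, Socs1, Tbk1, Ikbke, Mavs, Ticam1 and Ticam2. With KLA NCoR was higher in 34 of 115 of their regions (29.6%, against 23.4% of all regions) and lower in 15 (13%). HDAC3 was higher in 46 of 114 (40.4%, against 27.5%) and lower in 14 (12.3%). p65 was higher in 67 of 108 (62%, against 57%) and lower in 6 (5.56%). PU.1 was higher in 9 of 106 and lower in 9 (8.49%, against 4.53% higher and 21.7% lower of all regions). Fosl2 was higher in 11 of 63 (17.5%, against 11.4%), and PGC1b in 21 of 85 (24.7%, against 16.4%). ERK1 was higher in 7 of 54 (13%, against 10.3%) and p300 in 59 of 137 (43.1%, against 42.1%), with 1 and 21 lower. In p65, ERK1 and p300 these shares lay near those of all regions. The median NCoR change over these regions was 0.26, against 1.87 over the regions of the 48 genes above. H3K27ac in DMSO cells was higher in 6 of 41 (14.6%, against 6.73% of all regions) and lower in 7 (17.1%, against 28.1%), the promoters called higher being those of Irf9, Socs1, Stat2, Tbk1 and Tyk2. With RGFP966 it was higher than with DMSO KLA in 7 of 41 (17.1%, against 26.9% of all regions), none of the 7 a promoter region, and lower in 3 (7.32%, against 9.53%), the promoters of Socs1, Stat2 and Tbk1.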

How the data were processed

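ChIP-seq libraries of mouse macrophages and bone marrow cells were used, 70 in 15 tables of 100 samples, and 30 input samples were not analysed here. The deposited values are raw tag counts per region: per the labels and methods, the authors aligned reads to mm10 with Bowtie2, called peaks with HOMER, kept those that passed an irreproducible discovery rate on the best correlated replicates, merged them over conditions and counted tags in them (up to 3 per position) without normalization. H3K27ac was counted over open chromatin peaks. Replicates were counted separately. Versions are not given in the sources used here. The 48 genes, the roles, the pathway and marker lists and the named loci were chosen with earlier results of these data known. Named promoters are the regions with most tags within 2 kb of the start; other distal regions, the genes Gbp3, Ifi205, Igtp, Oas3 and Trim25, and the ETS-IRF and GAS motifs were chosen after values were seen.

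Counts were tested with edgeR 4.0.16 (quasi-likelihood F-test, R 4.3.3, limma 3.58.1), 1 fit per table, library sizes set to the totals in the file headers, regions kept with at least 4 tags in 1 library (16 for H3K27ac), and Benjamini-Hochberg adjustment over all regions of the table. The steps were tested on simulated data. 1 gene of the pathway list is not reported here. Alternatives were TMM scaling, no filter, DESeq2 1.42.0, a replicate block and leaving out each library, where a lone library of an arm is assumed to vary like the other groups. Same-numbered libraries of different groups did not deviate together (31 correlations of deviations, -0.0266 to 0.0878), so the numbers were not taken as pairs. No 2 libraries agreed within sampling noise (lowest chi-square per region 1.31). Sequences came from RefSeq and GRCm38.p6, and figures were drawn with matplotlib 3.10.9 in Python 3.11.15.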

Additional observations from a re-analysis of the deposited data

Results flagged for a closer look

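The effect of KLA on H3K27ac differed between PGC1b flox/flox, LysMCre and PGC1b flox/flox cells at 2 distal regions, by the interaction term of the edgeR fit with Benjamini-Hochberg adjustment. At the Ifnb1 region 6967 bases after the start the difference, Cre cells minus control, was 1.88 ± 0.38 (log2, SE, adjusted p = 1.34e-05), with both Cre KLA libraries above both Cre Veh libraries and both control KLA libraries below both control Veh libraries. At the Irgm1 region 14502 bases after the start it was 1.13 ± 0.40 (adjusted p = 0.028). There the Cre cells had 33.1 and 35.8 tags per 10 M in Veh and 36.1 and 43.0 in KLA, and the control cells 50.5 and 51.3 in Veh and 33.7 and 19.9 in KLA. No group had more than 2 libraries, so none was tested for a library standing apart.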

How the results depend on the processing

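With TMM scaling the number of regions called went from 151 to 95 in p65, from 27 to 42 in Fosl2, from 43 to 68 in PU.1, from 84 to 9 for NCoR with ERKi, from 1 to 0 for ERK1 at Day4, from 14 to 2 for p300 at Day4, from 2 to 0 for NKO Veh against WT Veh, from 0 to 1 for NKO KLA against WT KLA, from 17 to 35 with RGFP966 and from 5 to 1 for Cre KLA against flox/flox KLA. DESeq2 gave 91 in p65, 45 in Fosl2, 68 in PU.1, 36 for PGC1b with ERKi, 15 for NCoR with ERKi, 0 for ERK1 and 1 for p300 at Day4, 0 for NKO Veh against WT Veh, 35 with RGFP966 and 1 for Cre KLA against flox/flox KLA. Without a filter 2 were called for NKO KLA against WT KLA and 1 for the difference between the NKO and WT responses. A replicate block gave 8 in Fosl2, 3 for PGC1b with ERKi and 9 for p300 at Day4, and the other 22 counts stayed within 1.5 times; the libraries share only a number. Leaving out 1 library at a time gave 85 to 189 in NCoR, 108 to 198 in HDAC3, 0 to 54 in Fosl2, 54 to 97 in PGC1b, 24 to 84 in ERK1, 113 to 147 in PGC1b with DMSO, 0 to 2 for PGC1b and 35 to 85 for NCoR with ERKi, 0 to 3 for ERK1 and 2 to 17 for p300 at Day4. For H3K27ac it gave 0 to 2 for NKO Veh against WT Veh, 0 to 1 for NKO KLA against WT KLA, 0 to 3 for their responses, 1 to 2 for Cre Veh against flox/flox Veh, 3 to 6 for Cre KLA against flox/flox KLA and 1 to 2 for their responses. TMM scaling turned the sign at 146 of 833 strongest promoter regions over the 25 comparisons, 36 of them for NCoR with ERKi; at 137 neither scaling gave a call, and the other 9 were in p65 Dtx3l (-1.12), Xaf1 (-0.23), Ifih1 (-1.04) and Oas2 (-0.16), for NCoR with ERKi Bst2 (0.16), Samhd1 (0.081) and Trim30a (0.12), and for p300 at Day4 Dhx58 (-0.15) and Oasl1 (-0.17). The cause of these changes was not tested. With 2 libraries per group and 4.30 to 21.5 M tags, differences at regions with few tags may not be detectable at this depth.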
